A study of Mus musculus with 6 samples.

Results

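The airway secretory and surfactant genes measured here were Scgb1a1, Scgb3a1, Scgb3a2, Sftpa1, Sftpb, Sftpc, Sftpd, Muc5b and Ltf, 9 genes of the 28032 named on the arrays. They were chosen by name: every non-control probe that carries one of these symbols, or an older synonym, was taken, which gave 11 probes of 41174. The rule uses names and no measured value. Scgb denotes secretoglobins, Sftp surfactant proteins, Muc5b a gel-forming mucin and Ltf lactotransferrin (lactoferrin).

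RNA was measured in thymic epithelial cells from 4-week-old C57BL/6 mice carrying the bacterial artificial chromosome transgene Tg(Meis1-EGFP)FO156Gsat/Mmcd, in which EGFP reports the activity of Meis1 regulatory sequence. All groups carried the transgene, so no group lacked it, and cells were sorted by the fluorescent reporter and not by Meis1 protein. Cells negative for the leukocyte antigen CD45 and positive for the epithelial adhesion molecule EpCAM were divided into 3 gates: small cells with bright EGFP (Meis1-high), large cells with intermediate EGFP (Meis1-low) and small cells without EGFP (Meis1-negative). Meis1-low thus differed from the other gates in cell size as well as in EGFP. Each gate was sampled in 2 independent experiments from pools of 6 mice and hybridised to 6 one-colour arrays in all, so a p value describes the spread between pools. Replicate 1 of all gates shared slide 1 and replicate 2 shared slide 2.

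The medulla of the thymus displays proteins of peripheral tissues to developing T cells, and so contributes to tolerance of self. Part of this display comes from mature medullary cells that express the transcriptional regulator Aire. Part comes from medullary cells that take on features of peripheral cell types, among them cells resembling airway secretory epithelium. In the airway, secretoglobins are small proteins released by club cells, mucins form the mucus gel, and lactoferrin binds iron. In the alveolus, the surfactant proteins lower surface tension (Sftpb and Sftpc) or bind microbes as collectins (Sftpa1 and Sftpd).

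Probes were 60 bases long, and their positions are on mm9, per the files. The probes below read Sftpa1, Sftpb and Sftpc, which were well above background on 5, 0 and 4 arrays, and lactoferrin, the member read by a pair of probes above background on all 6. The probes for Sftpb (chr6:72257183-72259754), Sftpc (chr14:70920899-70921159, minus strand) and the 5′ probe for Ltf (chr9:110938264-110941314) cover 2572, 261 and 3051 bases of genome with 60 bases of probe and thus span exon junctions. The Sftpa1 probe (chr14:41947507-41947566) and the 3′ Ltf probe (chr9:110942873-110942932) lie in unbroken stretches.
Sftpa1 probe: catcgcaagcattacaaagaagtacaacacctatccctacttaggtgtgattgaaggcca
Sftpb probe: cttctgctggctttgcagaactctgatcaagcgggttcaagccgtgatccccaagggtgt
Sftpc probe: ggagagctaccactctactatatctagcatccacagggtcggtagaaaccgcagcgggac
Ltf 5′ probe: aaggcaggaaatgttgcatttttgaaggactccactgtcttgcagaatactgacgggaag
Ltf 3′ probe: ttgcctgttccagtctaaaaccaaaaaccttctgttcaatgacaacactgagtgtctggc

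Other single probes lay on chromosome 19 for Scgb1a1 (chr19:9158197-9158256, minus strand), chromosome 11 for Scgb3a1 (chr11:49478489-49478548), chromosome 7 for Muc5b (chr7:149058735-149058794), and chromosome 14 for Sftpd (chr14:41985529-41985588, minus strand). A further Sftpa1 probe lay at chr14:41948953-41949012. Sftpa1 and Sftpd are neighbours of the collectin cluster on chromosome 14, with only Mbl1, another collectin, listed between them in RefSeq and 38.0 kb between their probes. Muc5b follows Muc6, Muc2 and Muc5ac, which are also gel-forming mucin genes.

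NKX2-1 and FOXA proteins are the transcription factors best known for driving surfactant and secretoglobin genes in lung. The 250 bases before the annotated start were at hand for 4 of the 9 members (RefSeq, GRCm38.p6), and 3 of them held a motif searched for. The windows are chr6:72304360-72304609 for Sftpb, chr11:49663345-49663594 for Scgb3a1 and chr14:41131538-41131787 for Sftpa1, all on the plus strand. Capitals mark CTCAAG (the NKX2-1 core) and TGTTTGC (a FOXA motif) on either strand, and TATAAA (the TATA box) on the plus strand only.
Sftpb upstream: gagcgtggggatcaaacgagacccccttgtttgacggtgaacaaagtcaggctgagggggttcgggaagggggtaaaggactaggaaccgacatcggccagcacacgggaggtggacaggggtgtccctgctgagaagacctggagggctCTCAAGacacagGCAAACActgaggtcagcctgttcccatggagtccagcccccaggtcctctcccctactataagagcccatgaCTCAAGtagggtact
Scgb3a1 upstream: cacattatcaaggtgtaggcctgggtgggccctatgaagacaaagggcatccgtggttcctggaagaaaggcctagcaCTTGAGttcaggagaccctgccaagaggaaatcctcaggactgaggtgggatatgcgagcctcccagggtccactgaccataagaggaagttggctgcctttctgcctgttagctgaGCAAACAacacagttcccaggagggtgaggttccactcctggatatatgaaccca
Sftpa1 upstream: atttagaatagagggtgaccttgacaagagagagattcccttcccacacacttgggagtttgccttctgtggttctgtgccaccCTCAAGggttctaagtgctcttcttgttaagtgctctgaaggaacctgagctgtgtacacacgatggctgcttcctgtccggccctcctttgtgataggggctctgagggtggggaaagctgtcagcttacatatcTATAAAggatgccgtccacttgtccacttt

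In the Sftpb window the NKX2-1 core began 100 and 15 bases before the start, and the FOXA motif lay on the minus strand 88 bases before it, with no overlap between the matches. The Scgb3a1 window held the core 172 bases and the FOXA motif 55 bases before the start, both on the minus strand. The Sftpa1 window held the core 166 bases and the TATA box 30 bases before the start. Among 32851 promoter windows of this length, CTCAAG was found in 13.33%, TGTTTGC in 4.301% and TATAAA in 7.592%. The other FOXA motif searched for on both strands, TGTTTAC, was in 3.166% of windows and in none of the 4. The Ltf window (chr9:111019042-111019291) held none of these letters. Matches are descriptions of sequence and not of binding.

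Each level is the log2 of a signal over the 75th percentile of its array, so 0 is the signal below which 75% of non-control spots fall. These levels compare a gene across arrays and not one gene with another. The 75th percentile itself ranged from 73.3 to 165.2 signal units over the arrays, and 53.1% to 69.6% of spots were well above background by the scanner's mark. Meis1 was at 0.24 and 0.12 in the Meis1-high pools, -2.35 and -1.61 in those of Meis1-low, and -3.20 and -0.99 in those of Meis1-negative. On each of the 6 arrays, 12 of 12 epithelial markers were well above background. Epcam was at 3.72 and 4.51 in the Meis1-high pools, 4.31 and 4.79 in those of Meis1-low, and 2.58 and 4.41 in those of Meis1-negative. Ptprc, which encodes CD45, was at -0.69 and 0.37, -1.003 and 0.43, and 5.16 and 3.17 in the same order. The thymocyte marker Cd3e was at 0.52 and -0.27, -1.98 and -1.64, and 6.82 and 1.12. Dntt, another, was at 1.63 and 1.55, 2.58 and 1.74, and 9.55 and 3.17. Ptprc, Cd3e and Dntt were each highest on the Meis1-negative arrays. Meis1-negative replicate 1 stood furthest apart in its 20 thymocyte markers. They summed to 1197.5 times the array's 75th percentile, against 28.3 on the other Meis1-negative array and 10.4 to 15.1 on the remaining 4. On that same array the 12 epithelial markers summed to 52.9, against 214.4 on the other Meis1-negative array. The part of thymocyte or other leukocyte RNA in the differences from Meis1-negative was not tested. The differences described are also given by slide. In bulk samples such as these, fewer cells of a type and less RNA per cell cannot be told apart.

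Of the 9 members, 8 passed the filter for testing (well above background on both arrays of at least 1 gate), against 64.9% of all genes. Sftpb, which encodes a hydrophobic protein needed to spread surfactant, was the exception, with levels of -5.42 and -6.24 in the Meis1-high pools, -5.16 and -5.45 in those of Meis1-low, and -5.84 and -5.78 in those of Meis1-negative. All 6 of these values were below the mark for well above background, so no order of the gates can be read for it. The array with the fewest members above background was Meis1-negative replicate 1, with 5 of 9. The other 5 arrays had 7 or 8.

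**Figure D1:**
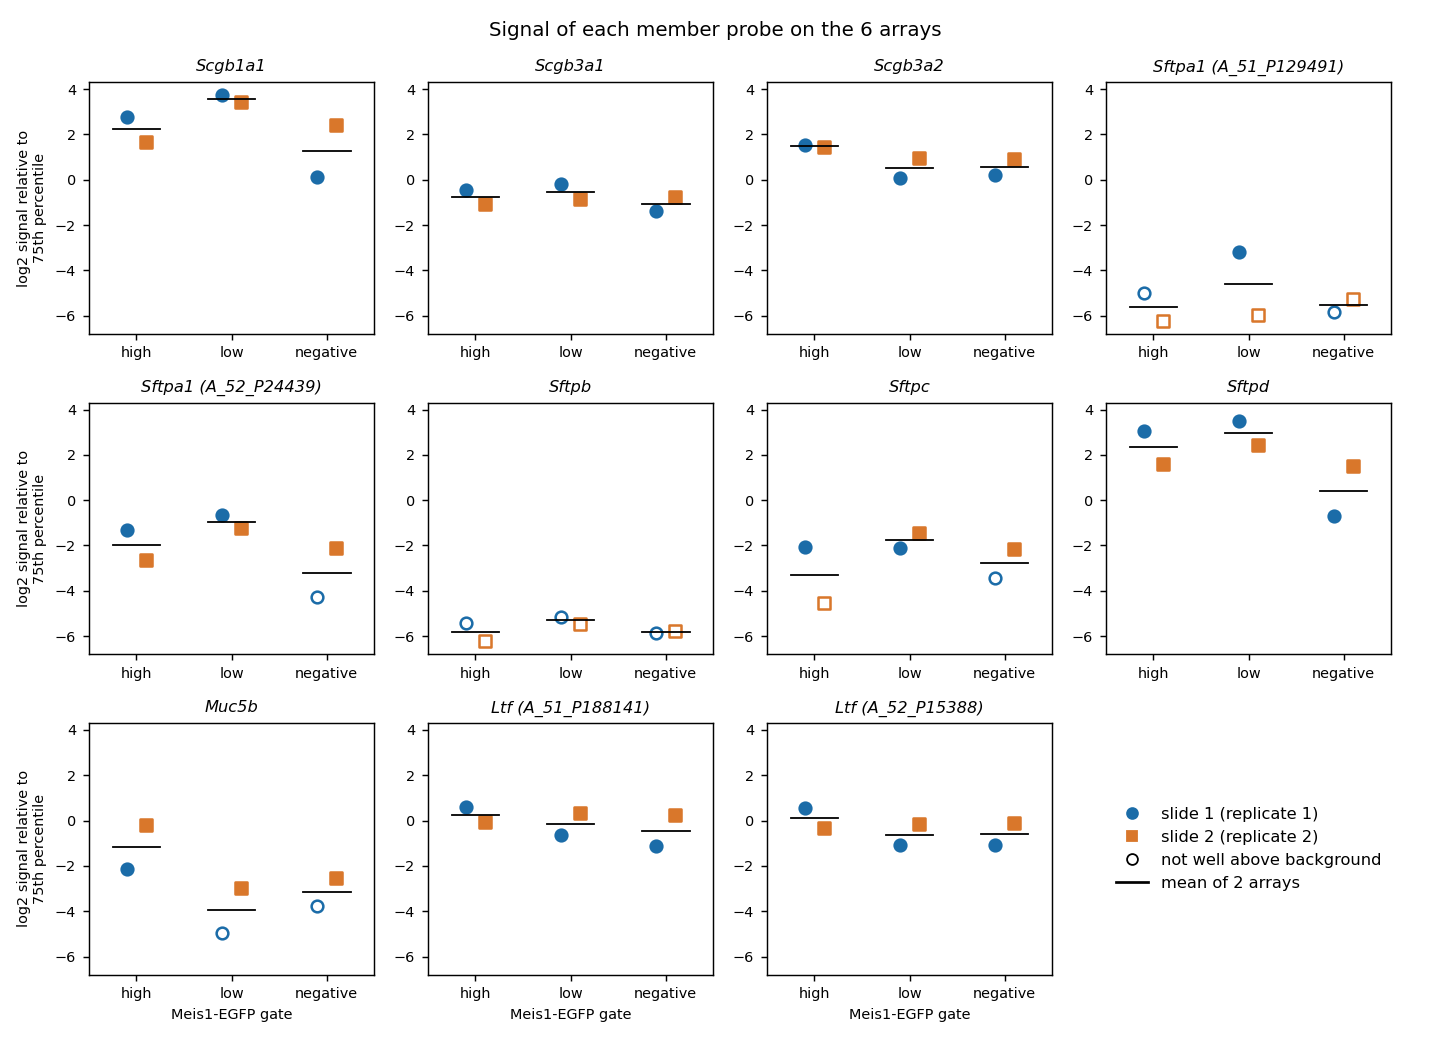
Log2 signal relative to the array's 75th percentile (y axis) of each of the 11 member probes in the 3 Meis1-EGFP gates (x axis). Circles are slide 1, squares are slide 2, open symbols are not well above background, and black lines are means of 2 arrays. Scgb1a1, Sftpa1 and Sftpd have their lowest point on Meis1-negative replicate 1 and their highest on Meis1-low replicate 1, while both Meis1-high points of Muc5b lie above its other 4.

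Among the secretoglobins, Scgb1a1 had the widest spread. Scgb1a1 encodes the club cell secretory protein, the classical marker of club cells. Its level was 2.76 and 1.67 in the Meis1-high pools, 3.73 and 3.42 in those of Meis1-low, and 0.12 and 2.42 in those of Meis1-negative. Both Meis1-low arrays lay above the other 4, and the Meis1-high and Meis1-negative arrays overlapped. The mean was 3.58 ± 0.22 in Meis1-low (SD, n = 2) against 2.22 ± 0.77 in Meis1-high and 1.27 ± 1.63 in Meis1-negative. Meis1-low exceeded Meis1-negative by 2.31 ± 0.88 on the log2 scale (SE; 4.96-fold), with an adjusted p of 0.607 in limma over all genes tested. Per slide this difference was 3.62 and 1.003, with the larger value on the slide that holds Meis1-negative replicate 1. Meis1-high was lower than Meis1-low by 0.97 on slide 1 and 1.75 on slide 2, a difference of -1.36 ± 0.88 (adjusted p 0.571). Against Meis1-negative, Meis1-high was 2.65 higher on slide 1 and 0.75 lower on slide 2.

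Scgb3a2, a secretoglobin also made by club cells early in airway development, had another order of gates. Its probe lies at chr18:43926928-43926987. It stood at 1.55 and 1.44 in the Meis1-high pools, 0.09 and 0.98 in those of Meis1-low, and 0.21 and 0.94 in those of Meis1-negative. Both Meis1-high arrays lay above the other 4, and the remaining gates overlapped. The Meis1-high mean exceeded that of Meis1-low by 0.97 ± 0.65 (adjusted p 0.584, slides 1.47 and 0.47) and that of Meis1-negative by 0.93 ± 0.65 (adjusted p 0.668, slides 1.34 and 0.51). The sign was thus the same on both slides, with no call by limma. Between Meis1-low and Meis1-negative the difference was -0.04, with a 95% interval of -1.56 to 1.48.

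Scgb3a1, a secretoglobin of larger airways, varied least. Levels were -0.44 and -1.07 in the Meis1-high pools, -0.18 and -0.87 in those of Meis1-low, and -1.36 and -0.77 in those of Meis1-negative. All 3 gates overlapped, and each pair of gates differed by less than its SE of 0.64. The 95% interval of Meis1-high minus Meis1-low ran from -1.73 to 1.28, which leaves room for differences of either sign.

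The collectins Sftpa1 and Sftpd, which bind sugars on microbes, followed the order of Scgb1a1. Sftpd was at 3.04 and 1.61 in the Meis1-high pools, 3.48 and 2.45 in those of Meis1-low, and -0.71 and 1.49 in those of Meis1-negative. Each of the 4 EGFP-positive arrays lay above both Meis1-negative arrays, while Meis1-high and Meis1-low overlapped. Meis1-low exceeded Meis1-negative by 2.58 ± 0.93 (5.96-fold, adjusted p 0.607), with 4.19 on slide 1 and 0.96 on slide 2. Meis1-high exceeded it by 1.94 ± 0.93 (3.82-fold, adjusted p 0.527), with 3.75 on slide 1 and 0.12 on slide 2. On slide 2 the second of these differences was thus close to 0. Meis1-high minus Meis1-low was -0.64 ± 0.93 (adjusted p 0.81).

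For Sftpa1, the brighter probe gave -1.33 and -2.64 in the Meis1-high pools, -0.67 and -1.24 in those of Meis1-low, and -4.26 and -2.13 in those of Meis1-negative. The value of -4.26 was not well above background, and both Meis1-low arrays lay above the other 4. Meis1-low exceeded Meis1-negative by 2.24 ± 0.88 (adjusted p 0.607), or by 1.96 with a floor, in which dimmer signals are raised to the weakest one that the array marks as well above background. The difference was 3.59 on slide 1, where Meis1-negative was not measured above background, and 0.89 on slide 2. Meis1-high minus Meis1-low was -1.03 ± 0.88 (adjusted p 0.67), negative on both slides. Meis1-high minus Meis1-negative was 1.21 ± 0.88 (adjusted p 0.68), but 2.93 on slide 1 and -0.51 on slide 2. The other Sftpa1 probe was well above background on 1 array, Meis1-low replicate 1, at -3.21. That array also gave the highest level of the brighter probe.

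Sftpc encodes the small hydrophobic surfactant protein of alveolar type II cells. Its levels were -2.08 and -4.53 in the Meis1-high pools, -2.09 and -1.45 in those of Meis1-low, and -3.43 and -2.14 in those of Meis1-negative. The values of -4.53 and -3.43 were not well above background, so each of those gates was measured on 1 array only. Meis1-low minus Meis1-negative was 1.01 ± 0.94 (adjusted p 0.759), positive on both slides. Meis1-high minus Meis1-low was 0.02 on slide 1, and on slide 2 Meis1-high was below the mark. Over both slides it was -1.53 ± 0.94 (adjusted p 0.546), or -1.28 with the same floor. Meis1-high minus Meis1-negative was -0.52 ± 0.94 (adjusted p 0.861), or -0.27 with the floor, with 1 of 2 arrays above the mark in each gate.

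Muc5b was higher in both Meis1-high pools than in the others. It encodes a gel-forming mucin of the airway, made by club and mucous cells. It was at -2.14 and -0.18 in the Meis1-high pools, -4.96 and -2.96 in those of Meis1-low, and -3.77 and -2.54 in those of Meis1-negative. The values of -4.96 and -3.77 were not well above background, so Meis1-low and Meis1-negative were each measured on 1 of 2 arrays. Muc5b passed the filter through Meis1-high alone, which favours its direction. Meis1-high exceeded Meis1-low by 2.80 ± 0.98, or by 2.47 with the floor, and by 1.80 to 3.80 with 1 array left out. On slide 2, where both gates were above background, the difference was 2.77. Its unadjusted p was 0.0234 and its adjusted p 0.312 in limma, so Muc5b was not called. Against Meis1-negative the difference was 2.00 ± 0.98 (adjusted p 0.537), or 1.96 with the floor, and 2.36 on slide 2. After normexp background correction, which compresses dim signals, the first of these differences was 0.59 and the second 0.83. The first was then smaller than those of Scgb1a1 (-1.19) and Scgb3a2 (0.79), so both size and rank depend on how dim signal is treated. Muc5ac, the neighbouring mucin gene, differed by 0.22, 0.42 and 0.20 between Meis1-high and Meis1-low, Meis1-high and Meis1-negative, and Meis1-low and Meis1-negative, each with an SE of 0.73.

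Ltf encodes the iron-binding protein of airway secretions, which neutrophils also store in their granules. The 5′ probe gave 0.59 and -0.07 in the Meis1-high pools, -0.62 and 0.35 in those of Meis1-low, and -1.12 and 0.23 in those of Meis1-negative. The 3′ probe gave 0.54 and -0.34, -1.09 and -0.16, and -1.07 and -0.09 in the same order. The gates overlapped on both probes, and replicate 1 of Meis1-high was the highest array on each. Meis1-high minus Meis1-low was 0.40 ± 0.74 by the 5′ probe (adjusted p 0.857) and 0.73 by the 3′ probe. By the 5′ probe, Meis1-high minus Meis1-negative was 0.71 ± 0.74 (adjusted p 0.768; slides 1.71 and -0.30) and Meis1-low minus Meis1-negative was 0.31 ± 0.74 (adjusted p 0.923). By the 3′ probe these differences were 0.68 and -0.04, so the sign of the second depended on the probe. S100a8, a calcium-binding protein of neutrophils, differed with the other sign. It was at 0.05 and 1.29 in Meis1-high against 3.90 and 3.57 in Meis1-low, a difference of -3.07 ± 0.75 (adjusted p 0.253). Of the 11 neutrophil markers tested, Ltf included, 9 were lower in Meis1-high than in Meis1-low, with Ltf and Mmp9 as the exceptions and 0 called. Over all genes tested, 44.7% were higher in Meis1-high. Cxcr2 and Retnlg passed the filter through Meis1-low alone, which favours Meis1-low. The summed neutrophil signal was 20.7 to 21.0 times the 75th percentile in Meis1-high, 82.5 to 117.4 in Meis1-low and 45.2 to 79.4 in Meis1-negative. The part of neutrophil RNA in the Ltf values was not tested.

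**Figure D2:**
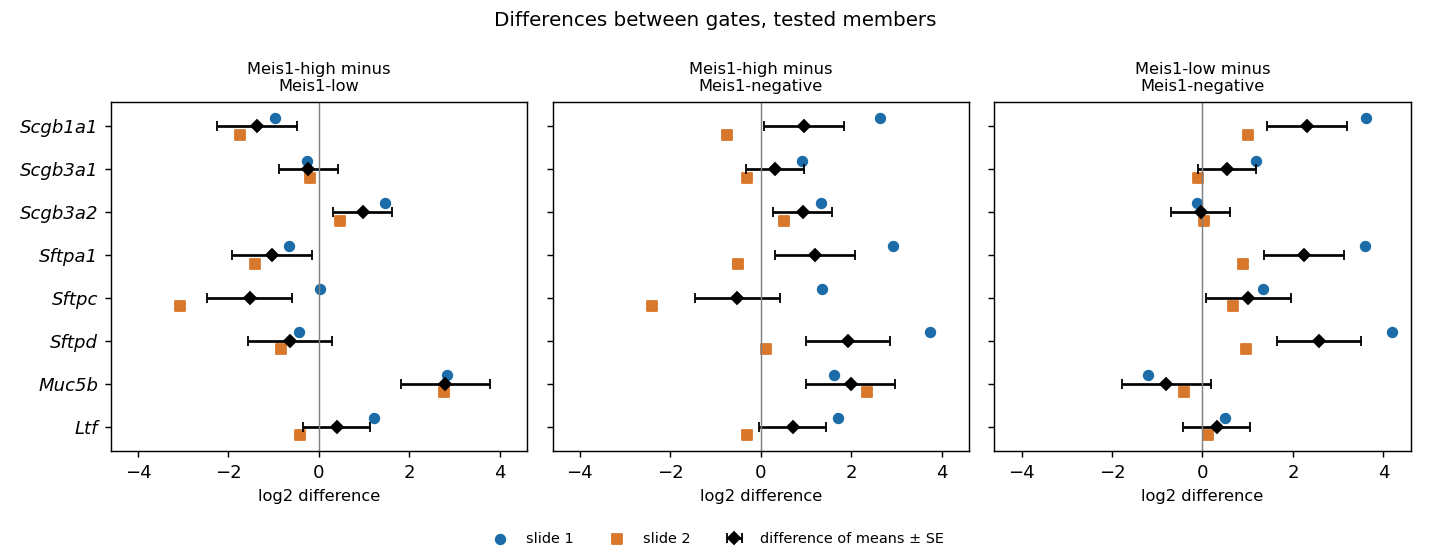
Log2 difference between gates (x axis) for the 8 tested members (y axis) in the 3 comparisons. Diamonds are differences of means with SE from the fit over 6 arrays, circles the difference on slide 1 and squares that on slide 2. The slide 1 points for Scgb1a1, Sftpa1 and Sftpd minus Meis1-negative lie between 2.65 and 4.19, those of Sftpa1 against a value not well above background, whereas their slide 2 points lie between -0.75 and 1.003.

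Set side by side, the EGFP-positive gates divided the members. Muc5b and Scgb3a2 were higher in Meis1-high without overlap of the arrays, and Scgb1a1 and Sftpa1 were lower without overlap. Muc5b had passed the filter through Meis1-high alone, so these counts are a description. They were 2 of 8 higher, against 22.7% of all genes, and 2 of 8 lower, against 31%. In all, 3 of 8 were higher, against 44.7% of all genes, and 5 lower. Among the 5, Sftpc had passed the filter through Meis1-low alone, which favours that direction. On both slides 2 were higher, against 31.6%, and 4 lower, against 40.7%. Their differences had a median of -0.43 against -0.15 over all genes tested. No member was called (adjusted p 0.312 to 0.911), and neither was any of the 18200 genes (0%). The counts at an unadjusted p under 0.05 were 1 of 8 members (Muc5b) and 13% of all genes. The member shares without overlap are thus near the shares of all genes.

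For Meis1-high against Meis1-negative, 7 of 8 members were higher, against 46.4% of all genes, and Sftpc was the exception. The median was 0.94, against -0.10 over all genes, but it was 1.67 on slide 1 and -0.30 on slide 2. Sftpd, Muc5b and Scgb3a2 were higher on both slides and without overlap, 3 of 8 against 28.4% of all genes on both slides and 19.3% without overlap. Muc5b had passed the filter through Meis1-high alone, so its direction here was favoured. No member was called (adjusted p 0.527 to 0.878), against 0% of all genes, and 0 of 8 members had an unadjusted p under 0.05, against 10.5%. Without Meis1-negative replicate 1, 6 members were higher and 2 lower, and the median was 0.088. Without replicate 2 it was 1.74.

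For Meis1-low against Meis1-negative, 6 of 8 members were higher, against 52% of all genes, and 4 of 8 were higher without overlap (Scgb1a1, Sftpa1, Sftpc and Sftpd), against 23.5%. Sftpc had passed the filter through Meis1-low alone, so its direction here was favoured. Higher on both slides were 5 of 8, these 4 and Ltf, against 33.8% of all genes. Ltf was counted as higher here by its 5′ probe only. Its 3′ probe differed by -0.02 on slide 1 and -0.07 on slide 2. The median of 0.78 compared with 0.05 over all genes, with 1.26 on slide 1 and 0.40 on slide 2. It was 0.30 without Meis1-negative replicate 1 and 1.32 without replicate 2. No member was called (adjusted p 0.607 to 0.992), against 0% of all genes. At an unadjusted p under 0.05 were 3 of 8 (Sftpd, Scgb1a1 and Sftpa1), against 8.09% of all genes. Without Meis1-negative replicate 2, so that only the array rich in thymocyte transcripts stood for its gate, the Scgb1a1 difference was 3.46. In that fit the lone Meis1-negative array is assumed to vary like the other gates. Without replicate 1 the Scgb1a1 difference was 1.16. The comparisons with Meis1-negative share its arrays, so they are not independent of each other.

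The members' profiles over the 6 arrays fell into a few shapes. Likeness was measured as the root mean square distance, in log2 units, between profiles centred on their own mean. The closest pair was Scgb1a1 and Sftpa1, a secretoglobin and a collectin from different chromosomes, at 0.18. Sftpa1 and Sftpd, the collectin neighbours, were at 0.33, and Scgb1a1 and Sftpd at 0.48. Scgb3a2 and Ltf were at 0.34, and the farthest pair was Sftpc and Muc5b at 2.22. Distances of Sftpa1, Sftpc and Muc5b rest in part on values not well above background, for Sftpa1 on Meis1-negative replicate 1. The distances are a description over arrays that share slides, and the lowest array for 5 of 8 members was Meis1-negative replicate 1, as it was for 30.6% of all genes. The highest was Meis1-low replicate 1 for 4 of 8, against 22.5% of all genes.

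The genes closest to each member over the 6 arrays, members aside, differed between the shapes. Closest to Scgb1a1 were Inf2 (0.19), Cldn23, a claudin (0.19), Ermap (0.20), Chac2 (0.21) and Sprr1a, a cornified envelope precursor (0.21). Closest to Sftpa1 were Adam18 (0.16), Ang (0.18), Lcn10 (0.18), Ces1d (0.20) and Chac2 (0.21), and closest to Sftpd were Ces1d (0.24), Sprr2e (0.25), Sprr2j-ps (0.26), Pdzk1ip1 (0.26) and Pdzrn3 (0.27). Chac2 thus recurred for Scgb1a1 and Sftpa1, and Ces1d, a carboxylesterase, for both collectins. The nearest to Muc5b were A430057L12Rik at 0.28 and Bmx, a tyrosine kinase, at 0.33, and the nearest to Sftpc was Nr5a2, a nuclear receptor, at 0.15. For the flatter profiles, the nearest were Yaf2 (0.09) for Scgb3a1 and Rasd1 (0.10) for Ltf. The named gene nearest to Scgb3a2 was Slc25a42 (0.12), behind 4 unnamed transcripts. Many of these genes were dim. On Meis1-negative replicate 1 the weakest signal well above background was at -3.69. Cldn23, Ermap, Chac2, Adam18, Lcn10, Pdzrn3, A430057L12Rik, Nr5a2 and Rasd1 lay below it there. Their distances thus rest in part on signals not well above background.

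**Figure D3:**
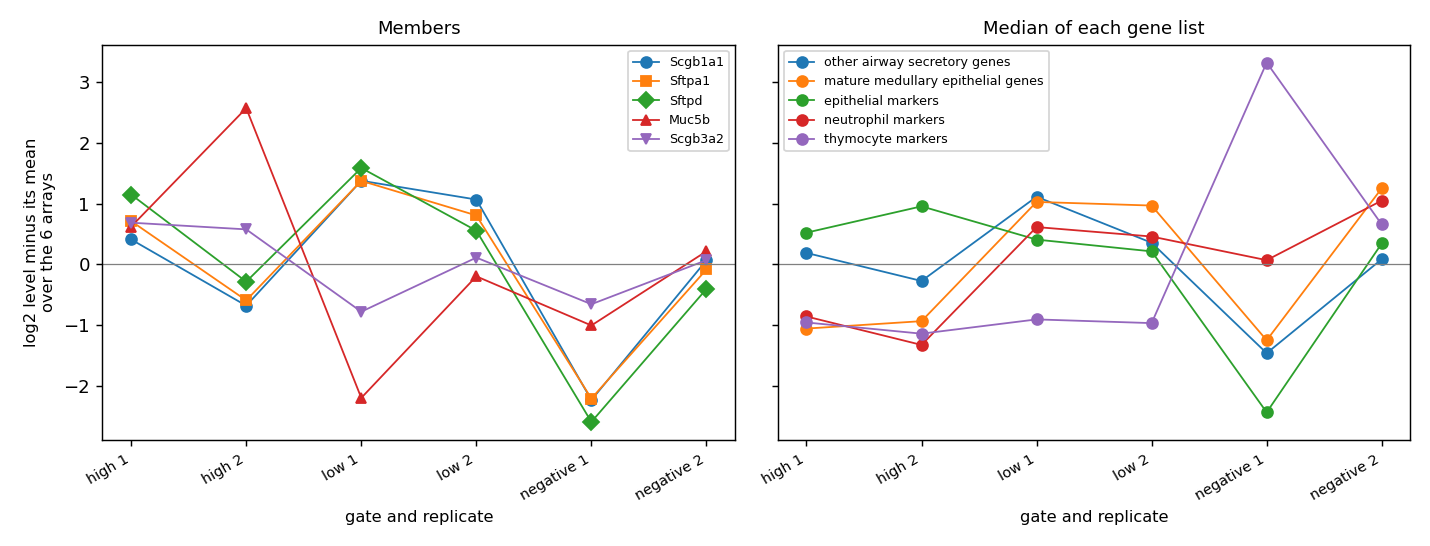
Log2 level minus its mean over the 6 arrays (y axis) by gate and replicate (x axis). The left panel shows 5 members and the right panel the median level of 5 gene lists. Scgb1a1, Sftpa1 and Sftpd have their lowest point on Meis1-negative replicate 1, where the thymocyte list has its highest.

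The other airway secretory genes were a list of 24 genes, all tested, of mucins, trefoil factors, antimicrobial proteins and club cell products. In Meis1-low all 24 were higher than in Meis1-negative, against 52% of all genes, and 20 of them on both slides, against 33.8%. Agr2, Lcn2 and Muc16 passed the filter through Meis1-low alone, which favours Meis1-low over either other gate. The list had a median of 1.60 against 0.05 over all genes. The median was 2.88 on slide 1 and 0.37 on slide 2, and 0 of 24 were called. Between Meis1-high and Meis1-low, 7 were higher, against 44.7% of all genes, and 17 lower, with a median of -1.10 and 0 called. Retnla, a resistin-like secreted protein, was at 0.25 and 0.68 in the Meis1-high pools, 3.57 and 2.68 in those of Meis1-low, and -0.10 and 1.80 in those of Meis1-negative, a difference between the EGFP-positive gates of -2.66 ± 0.80 (adjusted p 0.278). Tff2, a trefoil peptide secreted with mucus, differed by -2.84 ± 0.91 (adjusted p 0.291). Muc16, a membrane-bound mucin, was at -5.29 and -2.08 in Meis1-high against 0.22 and -1.06 in Meis1-low, a difference of -3.27 ± 1.35 (adjusted p 0.373). The value of -5.29 was not well above background.

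Cyp2f2, a cytochrome P450 characteristic of club cells, had its highest levels in Meis1-high, as Muc5b and Scgb3a2 did. Its level was 3.47 and 2.55 in the Meis1-high pools, 0.98 and -0.20 in those of Meis1-low, and -0.96 and 0.93 in those of Meis1-negative. Meis1-high exceeded Meis1-low by 2.62 ± 0.85 (adjusted p 0.292; slides 2.49 and 2.75) and Meis1-negative by 3.03 ± 0.85 (adjusted p 0.336; slides 4.43 and 1.62). The Meis1-high arrays were above the other 4. Bpifa1, a secreted antimicrobial protein of the upper airway, was at 2.39 and 2.09 in the Meis1-high pools, 1.78 and 0.73 in those of Meis1-low, and -1.56 and 0.81 in those of Meis1-negative. It exceeded Meis1-negative by 2.62 ± 0.89 in Meis1-high (adjusted p 0.39). The club cell products Scgb1a1 and Cyp2f2 thus had their highest arrays in different gates, with neither called.

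Genes that handle surfactant or mark alveolar epithelium (12 genes, all tested) had a median of -1.08 between Meis1-high and Meis1-low, 5 higher and 7 lower, each on both slides. Over all genes, 31.6% were higher on both slides and 40.7% lower on both. Napsa, the napsin protease that processes Sftpb, was at -5.25 and -4.90 in Meis1-high, neither well above background, against -1.76 and -1.40 in the Meis1-low pools and -1.87 and -0.84 in those of Meis1-negative. Napsa was at least 4.13-fold higher in Meis1-low and at least 4.81-fold higher in Meis1-negative than in Meis1-high (adjusted p 0.249 and 0.153). These bounds set the mean of the brighter gate against the lowest signal well above background on each dim array, or the probe's own signal where that was higher. The adjusted p beside a bound, here and below, is from the limma fit to the measured levels without a floor, so it does not test the bound. Cldn18, a claudin of alveolar epithelium, was at least 3.17-fold higher in Meis1-low than in Meis1-high (adjusted p 0.294). Markers of alveolar type I cells differed in direction. Rtkn2 was at -3.63 and -1.29 in Meis1-high, the first not well above background, against 1.12 and 0.40 in Meis1-low (-3.22 ± 0.88, adjusted p 0.253), and Hopx differed by -1.56 ± 0.80 (adjusted p 0.466). Pdpn, a membrane protein of these cells, was at 0.82 and 1.16 in Meis1-high against -0.54 and -1.81 in Meis1-low (2.17 ± 0.99, adjusted p 0.415). Between Meis1-low and Meis1-negative, 11 of 12 were higher, against 52% of all genes. The median was 1.07, with 2.69 on slide 1 and -0.02 on slide 2. Cldn18 and Lpcat1 passed the filter through Meis1-low alone, which favours Meis1-low over either other gate. None of the 12 was called in any of the 3 comparisons.

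Of 16 transcription factors of airway and alveolar epithelium, 15 were tested. Nkx2-1, whose product binds the core shown in capitals, was well above background only in Meis1-low, at -2.58 and -2.82. It was at least 1.89-fold higher there than in Meis1-high (adjusted p 0.253) and at least 2.11-fold higher than in Meis1-negative (adjusted p 0.607). Sox2, a factor of conducting airway epithelium, was likewise well above background only in Meis1-low, at -2.64 and -3.36, at least 1.54-fold higher than in Meis1-high (adjusted p 0.271) and at least 2.00-fold higher than in Meis1-negative (adjusted p 0.391). Foxa2 was at 1.78 and 0.38 in the Meis1-high pools, 2.02 and 0.15 in those of Meis1-low, and -0.93 and -0.45 in those of Meis1-negative, so the EGFP-positive gates overlapped and lay above Meis1-negative. Foxa3 lay likewise, with means of -0.68, -0.70 and -1.93 in the same order of gates. Foxa1 did not, with means of -2.83, -2.26 and -3.002 and overlap of each EGFP-positive gate with Meis1-negative. Over the list, 14 of 15 were higher in Meis1-low than in Meis1-negative, against 52% of all genes. In Meis1-high 13 of 15 were higher than in Meis1-negative, against 46.4%. The medians were 1.30 and 1.20, with 0 called in each. Nkx2-1, Sox2, Spdef and Gata6 passed the filter through Meis1-low alone. This favours Meis1-low over either other gate, in the fold bounds as well as in the first count. Between Meis1-high and Meis1-low the median was -0.01.

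**Figure D4:**
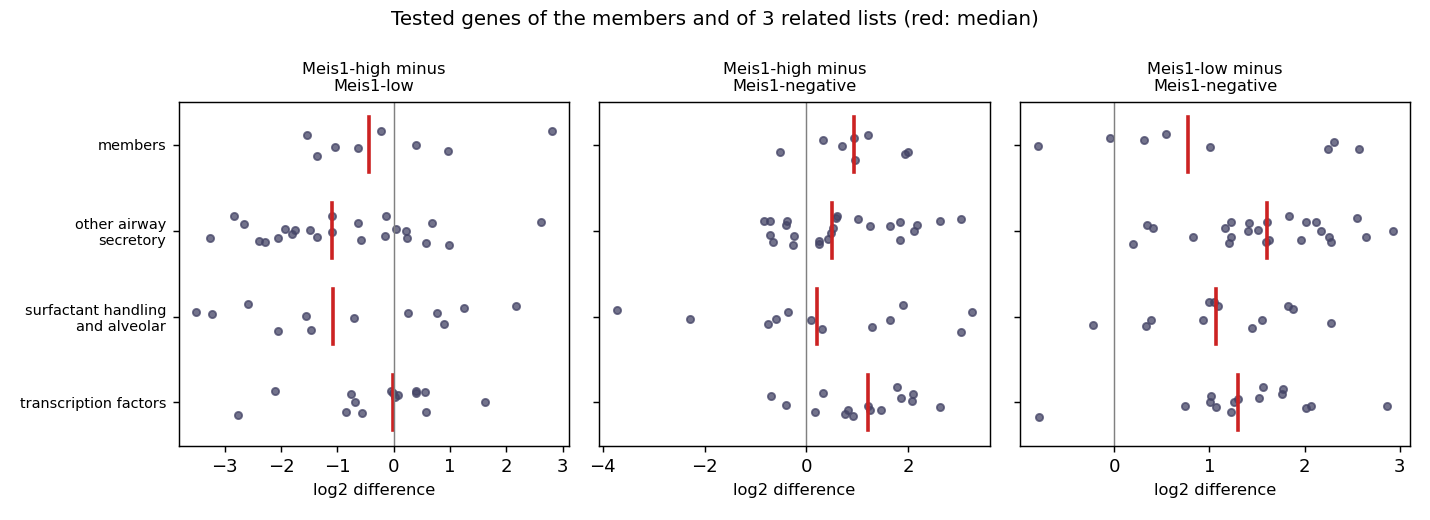
Log2 difference between gates (x axis) for each tested gene of the members and of 3 related lists (y axis), with the list median in red. In Meis1-low minus Meis1-negative, all 24 other airway secretory genes lie above 0. In Meis1-high minus Meis1-low, their median lies at -1.10 and that of the transcription factors at -0.01.

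All 12 genes of mature medullary cells were lower in Meis1-high than in Meis1-low on both slides, against 40.7% of all genes. Their median was -2.28, with 0 called, whereas the members divided into 3 higher and 5 lower. Over all genes tested, 44.7% were higher in Meis1-high, and the median was -0.15. Aire was at 1.19 and 2.69 in the Meis1-high pools, 3.87 and 4.65 in those of Meis1-low, and 1.22 and 3.84 in those of Meis1-negative (Meis1-high minus Meis1-low -2.32 ± 0.996, adjusted p 0.387). Macrophage markers also were lower in Meis1-high than in Meis1-low, 9 of 9 tested, with a median of -2.48 and 0 called, and their summed signal was 6.03 to 7.28 in Meis1-high against 27.8 to 40.2 in Meis1-low. Cd86 of the medullary list, and Csf1r, Mrc1 and Fcgr1 of the macrophage list, passed the filter through Meis1-low alone, which favours this direction. Ciliated cell markers, the other main class of airway epithelium, were lower in 9 of 11 tested, with a median of -0.75 and 0 called. Pan-leukocyte markers had a median of -0.78 (7 of 10 lower) and B cell markers one of -0.78 (4 of 6 lower), with 0 called in each. Of the B cell markers, Pax5 passed the filter through Meis1-low alone, Ebf1 through Meis1-high alone and Cd79a through Meis1-negative alone. The part of macrophage or other leukocyte RNA in the differences of the members and of the related lists, Retnla included, was not tested.

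Against Meis1-negative, the marker lists had these medians. Thymocyte markers were lower in all 18 tested, with -3.03 for Meis1-high and -3.62 for Meis1-low, and epithelial markers were higher in all 12, with 1.32 and 1.19. Pan-leukocyte markers were higher in 1 of 10 for Meis1-high (median -1.61) and in 2 of 10 for Meis1-low (median -0.54). Over all genes the shares higher were 46.4% and 52%. The thymocyte markers Arpp21, Cd5 and Cd28 passed the filter through Meis1-negative alone, which favours that gate. By slide, the epithelial median was 2.84 and 0.56 for Meis1-high and 2.38 and 0.26 for Meis1-low. The epithelial markers and the members' medians were therefore both larger on slide 1, where the Meis1-negative array had the higher thymocyte signal. None of these marker genes was called.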

How the data were processed

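RNA of 6 pools (2 per gate) was amplified before Cy3 labelling, per the labels' protocols. Agilent Feature Extraction 9.5.3.1 produced the scanner files, per the submitters' processing notes. The deposited intensity is background-subtracted and not scaled between arrays, per the file headers. The authors' deposited log2 table holds scaled values with the median of every probe set to 0, and column medians of -0.1685 to 0.1541. It served as an alternative.

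Control spots and outlier spots (53 to 78 per array of 43379) were left out. The log2 of each spot was taken, spots of a probe were averaged, and the array's 75th percentile was subtracted. A probe was kept if both arrays of any gate were well above background (26560 of 41174). This favours a gene kept through a single gate to be higher in that gate, in all lists. Names came from a RefSeq table for 26690 probes by accession, 96 by listed accession, 5123 by symbol and 934 by synonym, and 8331 kept the file's name. The probe with the highest mean represented each of 18200 genes. R 4.3.3 with limma 3.58.1 fitted 1 mean per gate over 6 arrays (3 residual degrees of freedom), with Benjamini-Hochberg adjustment over all genes and a threshold of 0.05. The fit was tested on simulated data. Member genes are all described, with up to 4 genes of the largest difference per related list and 6 fixed genes. The fixed genes were Meis1, Aire, Epcam, Ptprc, Cd3e and Dntt. Muc5ac, Mmp9, Foxa1 and Foxa3, and Hopx between Meis1-high and Meis1-low, were named after their values were seen. Members and lists were chosen with earlier results of these data known. Figures used matplotlib 3.10.9.

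Alternatives were normexp correction (offset 50), quantile and median scaling, other filters, a floor, the replicate block, probe means, array weights, the authors' values, outlier spots kept, an adjusted p under 0.10, a fit to the 4 arrays of the compared gates, and fits that omit each array. With 2 arrays per gate, their number limits the precision.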

Additional observations from a re-analysis of the deposited data

How the results depend on the processing

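Over 24 member differences and every alternative run, 441 of 456 values kept their direction and their side of the threshold, 14 turned direction without a call on either side, and 1 became a call (Scgb1a1, Meis1-low minus Meis1-negative, 3.46 with an adjusted p of 0.047 without Meis1-negative replicate 2). Several alternatives left each difference at its reported value, so its direction could not turn. These were the replicate block, array weights, an adjusted p under 0.10, and the fit to the 4 arrays of the compared gates. Fits without arrays of the gate not compared did the same. The other filters and outlier spots kept also left all 24 differences at their reported values, and probe means changed only those of Ltf. All these unchanged values are counted among the 441 but do not test direction. Under normexp correction, Muc5b in Meis1-low minus Meis1-negative turned to 0.24 and Sftpc in Meis1-high minus Meis1-negative to 0.091. The other 12 turned values came from leaving out 1 array. Over these fits, Meis1-high minus Meis1-low ranged from -0.57 to 0.12 for Scgb3a1 (0.08 without Meis1-high replicate 2), from -1.36 to 0.078 for Sftpd and from -0.093 to 0.89 for Ltf. Meis1-high minus Meis1-negative ranged from -0.20 to 2.102 for Scgb1a1, and from -1.75 to 0.71 for Sftpc (0.13 without Meis1-negative replicate 2). Meis1-low minus Meis1-negative ranged from -0.49 to 0.41 for Scgb3a2 (0.32 without Meis1-negative replicate 2), from -1.81 to 0.20 for Muc5b, and from -0.37 to 0.99 for Ltf (-0.18 without Meis1-low replicate 2). The members' median for Meis1-high minus Meis1-low ranged from -0.95 without Meis1-high replicate 1 to 0.081 without Meis1-high replicate 2, and was -0.87 without Meis1-low replicate 2. Genes called, 0 in each comparison as reported, became 235 for Meis1-high minus Meis1-low (94 higher, 141 lower), 303 for Meis1-high minus Meis1-negative (126 higher, 177 lower), 121 for Meis1-low minus Meis1-negative (18 higher, 103 lower) and 457 for the F test under normexp correction, with 0 members among those of the 3 comparisons. Median scaling gave 74 for Meis1-high minus Meis1-negative (6 higher, 68 lower), 13 for Meis1-low minus Meis1-negative (0 higher) and 61 for the F test, and moved the median of all genes in the first of these from -0.10 to -0.20. The floor gave 21 for Meis1-high minus Meis1-negative (1 higher, 20 lower), and an adjusted p under 0.10 gave 3 for Meis1-low minus Meis1-negative. Leaving out 1 array gave 0 to 949 for Meis1-high minus Meis1-negative, 0 to 1267 for Meis1-low minus Meis1-negative and 0 to 978 for the F test, the highest in each case without Meis1-negative replicate 2. The cause was not tested. With the replicate block (slide), 0 genes were called in the 3 comparisons, the members' differences kept their values, and their lowest adjusted p were 0.247, 0.357 and 0.521 for Meis1-high minus Meis1-low, Meis1-high minus Meis1-negative and Meis1-low minus Meis1-negative. Deviations of same-numbered arrays correlated across genes at 0.209, 0.128 and 0.125 in the same order, and the labels do not pair pools. Signal over background limits Sftpb, with 0 arrays above the mark.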
